A study of Homo sapiens with 8 samples.

Results

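The 86 histone genes described here were chosen by symbol among the protein-coding genes of a table of 67060 genes. Of these, 74 carry a clustered, replication-dependent type of symbol (H1- followed by a digit, H2AC, H2BC, H3C or H4C). The other 12 carry a variant symbol (H2AZ, H2AX, H2AJ, H3-, MACROH2A or CENPA). The symbol rule also places H1-7, H1-8 and H1-10 in the clustered class although these linker histone genes lie outside the histone clusters. Expression was measured by RNA sequencing in SH-SY5Y, a human neuroblastoma line that the labels call neuronal progenitors. The tested cells received adenovirus encoding BioID-Flag-ERRg, the biotin ligase BioID fused to Flag-tagged estrogen-related receptor gamma (the product of ESRRG), and are called ERRg. The control cells received adenovirus encoding BioID-GFP-NLS, the same ligase joined to GFP (green fluorescent protein) that carries a nuclear localisation signal, and are called GFP. Both groups got 0.5 ul of virus at 80% confluence, RNA was taken 48 h later, and each group has 4 libraries. The study asks how BioID-ERRg expression changes gene expression in these cells, with virus, BioID and the parental line common to both groups.

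Histones package DNA into nucleosomes, each made of the core histones H2A, H2B, H3 and H4, with H1 binding the linker DNA. The clustered genes are transcribed mainly in S phase, and their mRNAs end in a conserved stem-loop instead of a poly(A) tail. The stem-loop is bound by SLBP, which is needed to process, export and translate these mRNAs. Variant histone genes are expressed through the cell cycle, most of their mRNAs are polyadenylated, and their proteins enter chromatin outside replication through dedicated chaperones. The libraries were made from total RNA depleted of ribosomal RNA, a method that keeps mRNAs without a poly(A) tail.

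Reads assigned to genes numbered 21.02 to 23.0 M per library in ERRg and 27.7 to 35.5 M in GFP. ESRRG, the targeted gene, averaged 808 CPM (SD 73.2) over 4 ERRg libraries and 34.9 CPM (SD 2.34) over 4 GFP libraries. CPM are counts per M reads of the library after TMM scaling, which sets libraries level on the bulk of their genes. Reads outside annotated exons were 46.7% ± 1.31 of a library in ERRg and 20.9% ± 3.58 in GFP (SD, n = 4 each). A fit with their share as a covariate called 0 clustered and 0 variant genes lower, and 8 genes in the whole table. The groups do not overlap in this share, so its part in the results below cannot be told apart from the treatment. Of the 10 neuroblastoma markers, TH and CHGA were listed at 0. The 10 summed to 408 to 491 CPM in ERRg and 739 to 846 CPM in GFP. The 6 fibroblast markers summed to 861 to 955 CPM in ERRg and 1552 to 1730.0 CPM in GFP. The 4 epithelial markers summed to 171 to 242 CPM in ERRg and 236 to 316 CPM in GFP, and the 5 glial markers to 4.10 to 5.08 CPM in ERRg and 5.72 to 6.53 CPM in GFP. The 3 blood markers stayed under 0.25 CPM in every library. Where a marker list moves with the histones, its part in their change was not tested. In bulk RNA, fewer cells of a kind and less RNA per cell cannot be told apart.

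Clustered histone transcripts made up a smaller share of the RNA in ERRg cells than in GFP cells, and variant histone transcripts differed in the same direction by less. The clustered genes took 0.318% ± 0.0538 of gene reads in ERRg and 0.932% ± 0.152 in GFP (SD, n = 4 each). The 4 ERRg libraries held 0.274%, 0.280%, 0.390% and 0.328%, against 0.831%, 1.12%, 0.788% and 0.987% in GFP libraries. The groups did not overlap, and ERRg replicate 3 and GFP replicate 2 were the highest of their groups. The variant genes took 0.151% ± 0.00384 of gene reads in ERRg and 0.196% ± 0.00712 in GFP (SD, n = 4 each), again with no overlap. ERRg libraries therefore held 1.88, 1.87, 2.55 and 2.14 clustered reads per variant read, and GFP libraries 4.26, 5.80, 3.83 and 5.21. This ratio is taken within a library and does not change with library scaling. It carries no test, because the 2 sums are scores over a chosen set of genes.

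**Figure D1:**
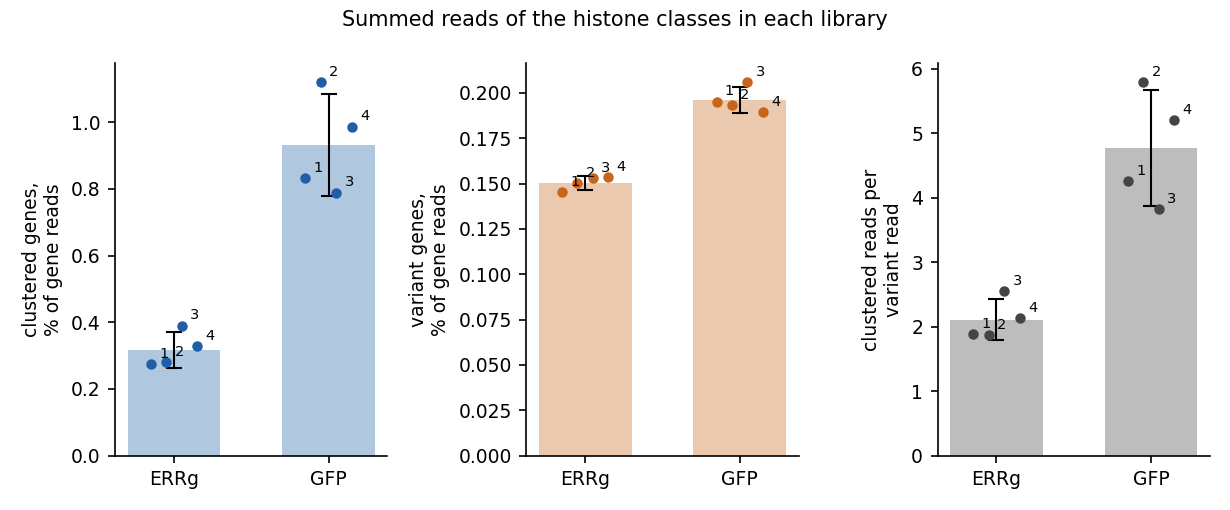
Reads of the clustered genes and of the variant genes as percent of all gene reads, and clustered reads per variant read, in each library (y axes). Bars are means of 4 libraries, error bars SD, points single libraries with their replicate number. All ERRg points lie below all GFP points in each panel, and the clustered share differs most (0.318% in ERRg and 0.932% in GFP).

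Each gene was compared with edgeR's quasi-likelihood test over all 21993 genes that passed a low-count filter, with a Benjamini-Hochberg adjusted p under 0.05 as the call. Of the 74 clustered genes, 60 passed the filter. Of these, 58 were called lower in ERRg, 0 higher, and 2 were not called. The background is 35.9% of all tested genes called lower and 38.8% called higher, or 50.6% called lower and 29% called higher among tested coding genes. The median log2 fold change (ERRg over GFP) of the 60 clustered genes was -1.97, beside 0.09 over all tested genes and -0.29 over tested coding genes. In the 58 called genes the 4 ERRg libraries lay below the 4 GFP libraries without overlap. The fold by which they were lower ran from 2.05 (H4C14) to 6.34 (H3C13), with a median of 3.93, and 50 of the 58 were at least 3-fold lower. The no-overlap count and the call count come from the same 60 genes, and the filter kept genes that were high in either group. The share of all tested genes without overlap was not counted. Since 74.7% of them were called in either direction, the no-overlap count is not read as particular to histones.

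All 9 variant genes that passed the filter, of 12, were called lower, with no overlap between the groups. Here too the share of all tested genes without overlap was not counted. Their median log2 fold change was -0.67, against 0.17 with offsets for GC and length of the coding sequence, and 2 of the 9 were at least 2-fold lower. Of the 60 clustered genes, 57 had a lower log2 fold change than H2AZ1, the variant gene with the second lowest value, and 22 had a lower one than H2AX, the lowest. The number of variant genes called depends on scaling. With upper-quartile factors or unadjusted library totals, which move the median of all tested genes to 0.40 and 0.495 on the log2 scale, 5 of the 9 variant genes were called lower and 0 higher. Over all tested genes 27.5% were then called lower and 50.2% higher with upper-quartile factors, and 24.5% lower and 53.6% higher with library totals. The clustered genes kept 58 lower calls under both, with medians of -1.67 and -1.56, but H1-6 was then called higher.

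**Figure D2:**
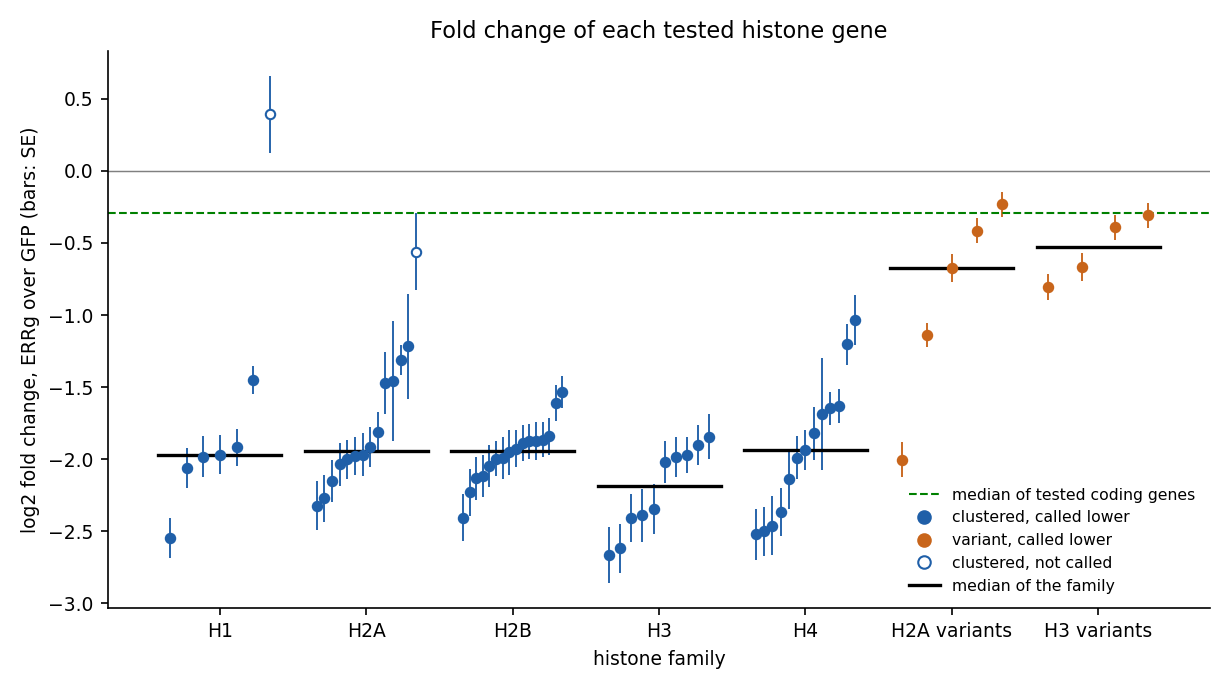
Log2 fold change (ERRg over GFP, y axis) of each tested histone gene by family (x axis), with SE bars, the family medians and the median of tested coding genes. Open points, H1-6 and H2AC7, were not called. Without offsets, clustered families have medians from -2.19 (H3) to -1.94, and the variants run from H2AX at -2.004 to MACROH2A1 at -0.23.

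The stem-loop is shown first because it separates the classes in sequence. The letters GG, any 2 bases, CTTTT, any base, AG, any base and GCC, in a row of 16 on the transcript strand, were searched in annotated 3′ untranslated regions (UTRs) of GENCODE release 29. They were found in 33 of 19439 coding genes (0.17%), and 32 of those 33 were histone genes. The reverse complement was found in 3 coding genes and in 0 histone genes. Among clustered genes with an annotated 3′ UTR of at least 16 bases, 30 of 40 (75%) held the letters, and within the clusters 29 of 34 (85.3%). Among variants, 2 of 11 (18.2%) held them, H2AX and H3-4. The printed sites, on GRCh38 with the matched letters in capitals, are those of H2B, H4, H2A and H3 members with many reads, of the least changed H4 gene and of H2AX. They are H2BC21 (chr1:149886188-149886203, minus strand), H4C5 (chr6:26205001-26205016, plus strand), H2AC8 (chr6:26217417-26217432, plus strand), H3C8 (chr6:26270923-26270938, minus strand), H4C14 (chr1:149833032-149833047, plus strand) and H2AX (chr11:119094898-119094913, minus strand).
H2BC21: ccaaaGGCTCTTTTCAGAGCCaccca
H4C5: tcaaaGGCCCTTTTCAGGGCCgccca
H2AC8: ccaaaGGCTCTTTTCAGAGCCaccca
H3C8: aaaaaGGCTCTTTTAAGAGCCgccta
H4C14: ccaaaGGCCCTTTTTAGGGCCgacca
H2AX: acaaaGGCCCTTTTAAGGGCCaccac
Of the 32 genes with a match, 27 were tested and all 27 were called lower, with a median log2 fold change of -1.88. Of 19 members with an annotated 3′ UTR and no match, 14 were tested and 13 were called lower, with a median of -0.97. That second set holds most variants and the H1 genes outside the clusters. The 35 members whose annotation has no such UTR, mostly clustered genes, had 28 tested, 27 called lower and a median of -2.02. A match describes the letters of the annotation and says nothing of where the mRNA ended in these cells. H3C8 was named after its values were seen.

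Linker histones H1 condense nucleosome arrays. Of 10 H1 genes, 7 were tested and 6 were called lower, with a median log2 fold change of -1.97. H1-2 (chromosome 6 from 26055787 to 26056428, minus strand), a common somatic linker histone, had 178, 175, 243 and 206 CPM in ERRg libraries, against 650.1, 958, 659 and 767 CPM in GFP libraries. The groups were well apart, with ERRg replicate 3 and GFP replicate 2 highest, and the log2 fold change was -1.92 with SE 0.13 (edgeR adjusted p = 1.24e-10). H1-5, another somatic linker histone of the chromosome 6 cluster, had 175 ± 34.01 CPM in ERRg cells and 734 ± 152 CPM in GFP cells (SD, n = 4 each, log2 fold change -2.06, SE 0.14). H1-4, of the same cluster, had 83.01 ± 15.9 CPM in ERRg cells and 328 ± 69.8 CPM in GFP cells (SD, n = 4 each, log2 fold change -1.98, SE 0.14).

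Without offsets, the largest fall of the H1 genes was outside the clusters. This rank was lost with offsets, where H1-3 of the chromosome 6 cluster, named after its values were seen, was lowest. Its log2 fold change was -1.26 with GC offsets, -1.09 with GC, length and span, and -1.33 with coding-sequence offsets. H1-10 (H1.X, chromosome 3 from 129314771 to 129316277, minus strand), a replication-independent linker histone with a polyadenylated mRNA, had 7.08, 6.80, 10.9 and 9.23 CPM in ERRg libraries, against 45.45, 58.3, 42.7 and 52.2 CPM in GFP libraries. The lowest GFP library was well above the highest ERRg library, and the log2 fold change was -2.55 with SE 0.14 (edgeR adjusted p = 1.64e-11). Its longest transcript has 68.6% GC, the highest of the tested histone genes. H1-6, the testis linker histone, was the one tested clustered gene with a positive value. It had 1.40, 1.09, 1.23 and 0.935 CPM in ERRg libraries, against 0.928, 1.24, 0.684 and 0.659 CPM in GFP libraries. These libraries overlapped and rest on 16 to 36 reads each, and the log2 fold change was 0.39 with SE 0.27 (edgeR adjusted p = 0.185).

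H2A and H2B form the dimer on each face of the nucleosome. Of 17 clustered H2A genes, 14 were tested and 13 were called lower (median log2 fold change -1.94), and of 19 H2B genes all 16 tested were called lower (median -1.94). H2BC21 (chromosome 1 from 149884459 to 149886652, minus strand) had 125, 126, 170 and 151 CPM in ERRg libraries, against 370.4, 554, 384 and 440.2 CPM in GFP libraries. It fell by 1.61 on the log2 scale (SE 0.13, edgeR adjusted p = 5.54e-10), with the groups far apart. H2BC18 had 82.5 to 121 CPM in ERRg libraries and 318 to 449 CPM in GFP libraries (log2 fold change -1.89, SE 0.13). H2BC4 had 88.5 ± 14.04 CPM in ERRg cells and 337 ± 63.5 CPM in GFP cells (SD, n = 4 each, log2 fold change -1.93, SE 0.13). Without offsets, H2B genes lay between H2BC13 at -2.41 (SE 0.16) and H2BC5 at -1.54 (SE 0.11) on the log2 scale.

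H2AC8 (chromosome 6 from 26216975 to 26217483, plus strand) had 59.2, 62.8, 90.6 and 72.8 CPM in ERRg libraries, against 266, 405, 255 and 343 CPM in GFP libraries. Every GFP library was above every ERRg library, and the log2 fold change was -2.15 with SE 0.14 (edgeR adjusted p = 1.31e-10). H2AC11 had 71.25 ± 12.3 CPM in ERRg cells and 250.1 ± 51.6 CPM in GFP cells (SD, n = 4 each, log2 fold change -1.81, SE 0.13). H2AC6, with an annotated transcript that runs 1114 bases past the stem-loop, had 88.7 ± 10.5 CPM in ERRg cells and 220.2 ± 24.3 CPM in GFP cells (SD, n = 4 each, log2 fold change -1.31, SE 0.10). Its call was lost with offsets for GC and length of the coding sequence (-0.02, edgeR adjusted p = 0.784). The lowest H2A value without offsets was that of H2AC4, at -2.32 (SE 0.17) on the log2 scale. H2AC7 had 0.865 ± 0.164 CPM in ERRg cells and 1.265 ± 0.3555 CPM in GFP cells (SD, n = 4 each), with overlapping libraries, a log2 fold change of -0.56 (SE 0.27) and an edgeR adjusted p of 0.0638. It was called lower when ERRg replicate 3 (-0.66, edgeR adjusted p = 0.0493), GFP replicate 1 (-0.67, edgeR adjusted p = 0.0476) or GFP replicate 4 (-0.79, edgeR adjusted p = 0.00961) was left out. In GENCODE release 29, 97.96% of its exon bases are shared with another gene on the same strand, and reads in shared bases cannot be told apart.

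H3 and H4 form the tetramer at the centre of the nucleosome. Of 13 clustered H3 genes all 10 tested were called lower, and of 15 H4 genes all 13 tested were called lower. Without offsets the H3 family had the lowest median log2 fold change, -2.19, and the H4 median was -1.94. The rank of H3 was lost with offsets. With GC offsets the H2B median was lowest (-1.60, H3 -1.43), as with GC, length and span (-1.335, H3 -1.32). With coding-sequence offsets the H1 median was lowest (-1.04, H3 -0.93). H3C2 (chromosome 6) had 47.3, 43.98, 79.3 and 61.55 CPM in ERRg libraries, against 258, 396, 250.5 and 329 CPM in GFP libraries. No library overlapped, and the log2 fold change was -2.41 with SE 0.16 (edgeR adjusted p = 1.54e-10). Without offsets, H3C13 (chromosome 1 from 149813271 to 149813681, minus strand), with 67.4% GC, had the lowest value of all 69 tested histone genes, -2.67 (SE 0.19). It had 13.3 ± 4.68 CPM in ERRg cells and 84.5 ± 21.55 CPM in GFP cells (SD, n = 4 each). H2BC15, named after its values were seen, was lowest with GC offsets (-2.45) and with GC, length and span (-2.37). With coding-sequence offsets H4C3 was lowest (-1.65), and H3C13 was at -1.26. H3C6 had a log2 fold change of -1.90 (SE 0.14), H3C11 of -2.35 (SE 0.17) and H3C12, the least lowered H3 gene without offsets, of -1.85 (SE 0.16).

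H4C5 (chromosome 6 from 26204552 to 26206038, plus strand) had 92.8, 101, 143 and 115 CPM in ERRg libraries, against 355, 552, 362 and 463 CPM in GFP libraries. The groups stood well apart, and the log2 fold change was -1.94 with SE 0.14 (edgeR adjusted p = 2.76e-10). H4C2, the lowest H4 gene without offsets, had 46.7 ± 12.85 CPM in ERRg cells and 269 ± 71.3 CPM in GFP cells (SD, n = 4 each, log2 fold change -2.52, SE 0.18). H4C3 had 45.85 ± 10.3 CPM in ERRg cells and 259.7 ± 78.1 CPM in GFP cells (SD, n = 4 each, log2 fold change -2.50, SE 0.17). It was the lowest H4 gene with GC offsets (-2.12), with GC, length and span (-1.89) and with coding-sequence offsets (-1.65). Without offsets H4C14 changed least, with 1.975, 2.03, 2.67 and 2.07 CPM in ERRg libraries, against 4.495, 5.11, 4.79 and 3.46 CPM in GFP libraries. The groups did not overlap, but the highest ERRg and lowest GFP libraries were close, and the log2 fold change was -1.03 with SE 0.17 (edgeR adjusted p = 1.88e-05), and 0.22, not called, with the coding-sequence offsets.

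Family shares of the clustered reads, which do not change with library scaling, differed by at most a few percentage points. H3 genes made up 11.2% ± 0.722 of clustered reads in ERRg and 13.3% ± 0.343 in GFP (SD, n = 4 each), without overlap (10.6% to 11.96% in ERRg and 12.7% to 13.5% in GFP). H4 genes made up 15.1% ± 0.173 in ERRg and 15.98% ± 0.585 in GFP, H2B genes 34.5% ± 0.519 in ERRg and 32.6% ± 0.322 in GFP, and H2A genes 16.7% ± 0.248 in ERRg and 16.03% ± 0.259 in GFP. H1 genes made up 22.5% ± 0.529 in ERRg and 22.1% ± 0.596 in GFP, with overlapping libraries. By position, the chromosome 6 cluster had 46 of 48 tested genes called lower (median log2 fold change -1.98), and the cluster at 1q21 had 9 of 9 (median -1.69). The background was 50.6% of tested coding genes. With GC offsets these counts were 43 of 46 (median -1.33) and 7 of 9 (median -1.10), beside 40.9%. With coding-sequence offsets they were 42 of 46 (median -0.83) and 5 of 9 (median -0.44), beside 41.7%. The H2BC21 and H2AC20 genes at 1q21 are transcribed away from each other, and H2AC20, named after its values were seen, had a log2 fold change of -2.002 (SE 0.14).

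Within each group the same library was highest for nearly all clustered genes. ERRg replicate 3 had the highest CPM of its group for 57 of the 60 tested clustered genes, and GFP replicate 2 for 60 of 60. How often this held over all tested genes was not counted. Among genes that are not histones, MCM2 and UPF1 had the same highest libraries and NPAT did not, so the order is not particular to histones. The lowest library varied more, and was ERRg replicate 1 for 38 of the 60 genes and GFP replicate 3 for 41. For the 9 variant genes, ERRg replicate 3 was highest for 4 and GFP replicate 2 for 5. Reads outside annotated exons in ERRg replicates 1, 2, 4 and 3 were 48.3%, 47.3%, 45.8% and 45.5% of reads, the reverse order of their clustered shares. In GFP replicates 3, 1, 4 and 2, listed by rising clustered share, they were 20.1%, 24.2%, 23.2% and 16.2%. Left out, GFP replicate 2 changed the clustered median to -1.89, and ERRg replicate 3 to -2.10, on the log2 scale. The part of this read share in the histone values was not tested within groups of 4.

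The variant genes encode histones with roles of their own. H2AX, the H2A variant phosphorylated at DNA breaks, is the tested variant with the stem-loop letters printed above, and its value without offsets was near the clustered median. It had 42.95, 43.5, 61.4 and 56.4 CPM in ERRg libraries, against 198, 238, 177 and 207 CPM in GFP libraries. All ERRg libraries were far below all GFP libraries, and the log2 fold change was -2.004 with SE 0.12 (edgeR adjusted p = 6.31e-11). With offsets for GC, length and span H2AX was at -0.60, above the clustered median of -1.105. With coding-sequence offsets H2AX was at -0.59 and the clustered median at -0.79. With GC offsets the lowest variant was H2AZ1, at -0.80. The gene lies on chromosome 11 from 119093854 to 119095467, minus strand, and its longest transcript has 66.4% GC, the highest among tested variants.

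H2A.Z marks promoters and is encoded by a pair of genes. H2AZ1 (chromosome 4 from 99948086 to 99950388, minus strand) had 159.8, 160.2, 166 and 165.5 CPM in ERRg libraries, against 331, 382, 369 and 355 CPM in GFP libraries. The ERRg libraries were nearly equal, and the log2 fold change was -1.14 with SE 0.08 (edgeR adjusted p = 3.02e-10). H2AZ2 (chromosome 7) had 159.5, 166, 162 and 163 CPM in ERRg libraries, against 206, 217, 239.9 and 204 CPM in GFP libraries. It was lower by less, with a log2 fold change of -0.41 (SE 0.08, edgeR adjusted p = 0.000171), and the call was lost with upper-quartile factors (-0.11) and library totals (-0.01) and turned with offsets for GC and length of the coding sequence (0.27). The log2 ratio of H2AZ1 to H2AZ2 counts was 0.00 ± 0.04 in ERRg and 0.73 ± 0.09 in GFP (SD, n = 4 each). The difference was -0.73, with an exact two-sided permutation p of 0.0286, which is the smallest that 4 against 4 libraries allow, and an adjusted p of 0.0286 over 3 pairs. With offsets for GC, length and span this difference was -0.08 (exact permutation p = 0.229).

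H3.3, the H3 variant placed in active genes and at telomeres, is encoded by H3-3A and H3-3B as the same protein. H3-3B (chromosome 17 from 75776434 to 75785893, minus strand) had 550.2, 575, 573 and 592 CPM in ERRg libraries, against 933, 1043, 1082 and 941 CPM in GFP libraries. The groups did not overlap, and the log2 fold change was -0.80 with SE 0.09 (edgeR adjusted p = 6.63e-08). With the coding-sequence offsets it turned to 0.34 and was called higher (edgeR adjusted p = 0.00164). H3-3A (chromosome 1) had 145, 149, 156 and 160.1 CPM in ERRg libraries, against 212, 194, 213 and 183 CPM in GFP libraries. H3-3A had a log2 fold change of -0.39 (SE 0.09, edgeR adjusted p = 0.000357), a call that was lost with upper-quartile factors (-0.09) and library totals (0.01) and turned with the coding-sequence offsets (0.19). The log2 ratio of H3-3A to H3-3B counts was -1.91 ± 0.03 in ERRg and -2.32 ± 0.12 in GFP (SD, n = 4 each). The difference of 0.41 had an exact permutation p of 0.0286 and an adjusted p of 0.0286 over 3 pairs. It turned to -0.35 with offsets for GC, length and span.

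MacroH2A carries a large extra domain and is linked to silent chromatin. MACROH2A2 (chromosome 10) had 53.8, 51.6, 62.9 and 55.4 CPM in ERRg libraries, against 90.7, 102, 84.6 and 79.4 CPM in GFP libraries, without overlap. MACROH2A2 had a log2 fold change of -0.67 (SE 0.10, edgeR adjusted p = 2.82e-06), a call that was lost with GC offsets (-0.03) and with offsets for GC, length and span (-0.08). MACROH2A1 (chromosome 5) had 99.1, 104, 119 and 109 CPM in ERRg libraries, against 127, 128, 124 and 126 CPM in GFP libraries. It changed least among variants, with a log2 fold change of -0.23 (SE 0.08, edgeR adjusted p = 0.0182). The call was lost without ERRg replicate 1 (-0.21, edgeR adjusted p = 0.0548), and the value was at 0.17 with library totals, 0.07 with upper-quartile factors and 0.15 with the coding-sequence offsets, where it was called higher. The log2 ratio of MACROH2A1 to MACROH2A2 counts was 0.94 ± 0.05 in ERRg and 0.51 ± 0.14 in GFP (SD, n = 4 each). The difference of 0.43 had an exact permutation p of 0.0286 (adjusted p = 0.0286 over 3 pairs) and turned to -0.41 with offsets for GC, length and span.

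CENPA, the H3 variant that marks centromeres, had 13.8, 15.85, 13.5 and 14.55 CPM in ERRg libraries, against 22.05, 22.5, 23.7 and 23.5 CPM in GFP libraries. The groups stood apart, and the log2 fold change was -0.67 with SE 0.10 (edgeR adjusted p = 2.84e-06), but the coding-sequence offsets turned it to 0.51. The row named H3-7 is coding in RefSeq but a processed transcript in GENCODE release 29, where 37.3% of its exon bases are shared with another gene on the same strand. It had 31.2 ± 1.497 CPM in ERRg cells and 38.6 ± 1.97 CPM in GFP cells (SD, n = 4 each, log2 fold change -0.31, SE 0.09, edgeR adjusted p = 0.0037), and was at 0.10 with library totals and at 0.29, called higher, with offsets for GC, length and span.

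**Figure D3:**
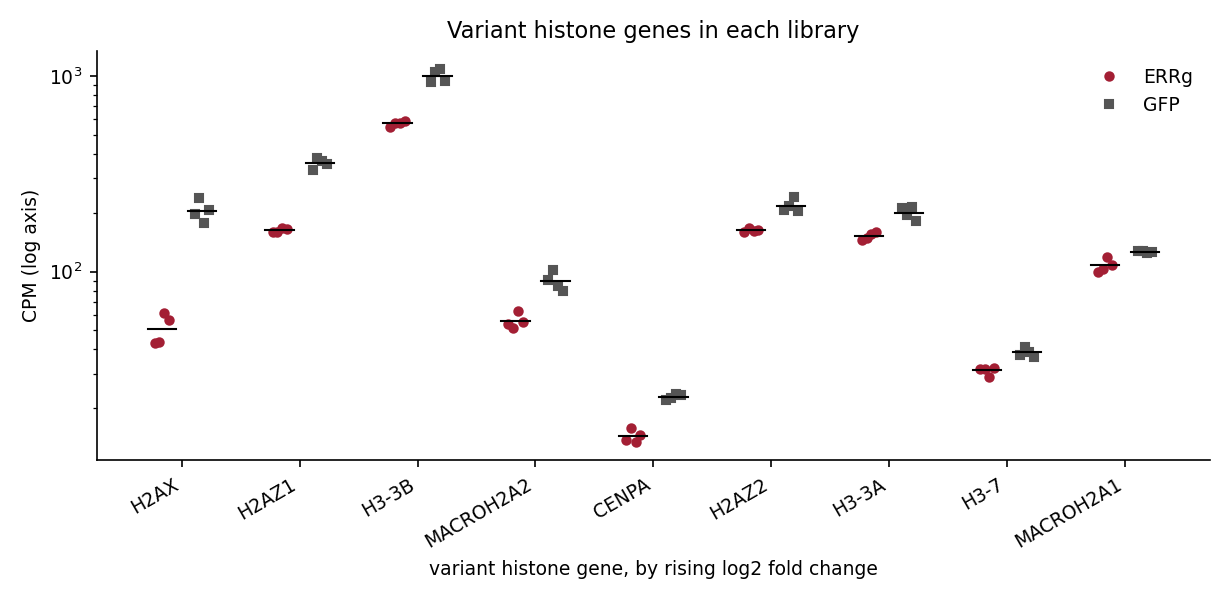
CPM (log axis) of the 9 tested variant histone genes in each ERRg (circles) and GFP (squares) library, ordered by log2 fold change, with a line at the mean of each group. With TMM scaling, ERRg libraries lie below GFP libraries for all 9 genes, widest for H2AX (51.1 and 205 CPM on average) and narrowest for MACROH2A1 (108 and 126 CPM).

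The 17 members that did not pass the filter were 14 clustered and 3 variant genes. The clustered ones never exceeded 19 reads in a library, and the variants never exceeded 13. H2AC15, H2AC25, H2BC26 and H3-4 were listed at 0 in all 8 libraries, and of these H2AC25, H2BC26 and H3-4 are neighbours on chromosome 1 between 228424845 and 228460470. Genes that many dividing cells use, such as ASF1B and IPO4, were also listed at 0, so no absence was read from a 0. The near-identical copies H2AC18 and H2AC19, H3C14 and H3C15, and H4C14 and H4C15 had few reads each, and reads that align more than once were not assigned to genes. Such reads were 6.41% ± 0.449 of reads in ERRg and 11.9% ± 1.33 in GFP (SD, n = 4 each). Values of these copies are therefore uncertain. Without 7 clustered genes with copies or shared exons (H2AC7, H2AC17, H2AC18, H2AC19, H3C12, H4C14 and H4C15), a choice made after seeing the data, 52 were called lower and the median was -1.99 on the log2 scale.

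Fold changes in these libraries followed GC content across coding genes. Over 13406 tested coding genes split in 10 deciles by the GC of the longest transcript, the median log2 fold change was 0.62 in the lowest decile and -1.33 in the highest. The tested clustered genes with an annotated transcript had a median GC of 56.7% (39.5% to 68.6%), and the variants 49.1% (40.5% to 66.4%). Of the 58 clustered genes, 55 lay below the median of coding genes in their own decile, by a median of 1.23 on the log2 scale. The other 3 were H1-6, H2AC7 and H2AC17. Of the 9 variants, 7 lay below it, and H3-7 and MACROH2A2 did not. With GC offsets in the fit, 53 of 58 clustered genes were called lower and 2 higher (H1-6 and H2AC7), with a median of -1.29. Among variants 7 of 9 were then called lower and 0 higher, with a median of -0.42. The background in this fit was 40.9% of tested coding genes called lower and 31.7% called higher.

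**Figure D4:**
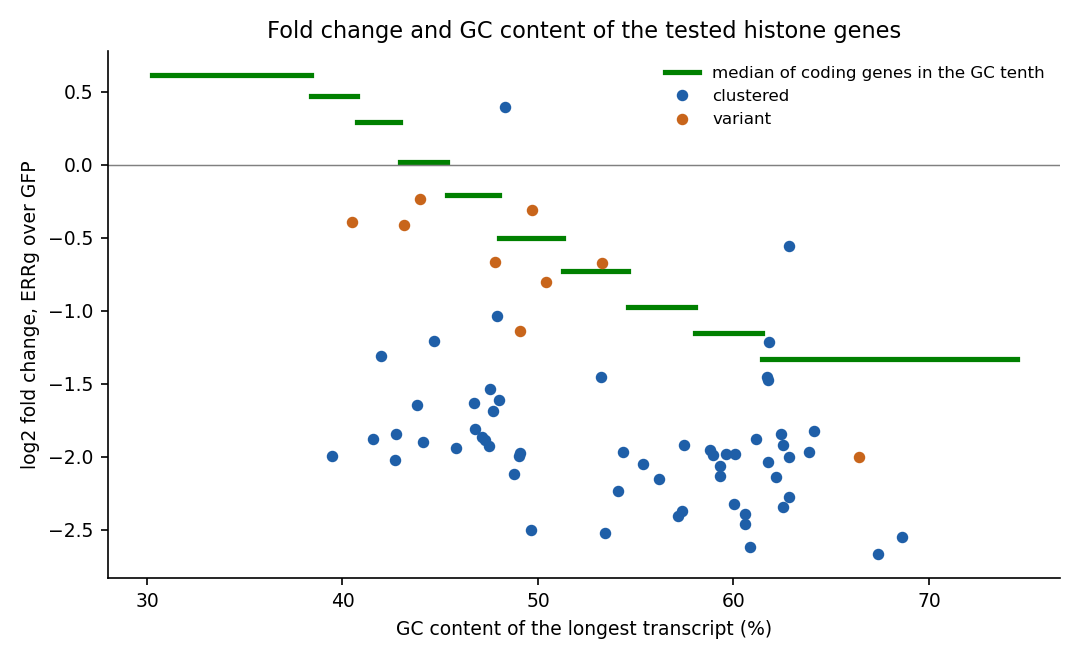
Log2 fold change (ERRg over GFP, y axis) against GC content of the longest transcript (x axis) for tested clustered and variant histone genes. Green bars give the median of tested coding genes in each decile by GC, from 0.62 to -1.33. Of the clustered genes, 55 of 58 lie below the bar of their decile, also at low GC.

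The GC of the longest transcript is low for clustered genes annotated with long 3′ ends, so offsets were also made from the coding sequence, whose GC had a median of 61.2% in clustered and 53.99% in variant genes. With offsets for GC and length of the coding sequence, 49 of 58 clustered genes were called lower and 2 higher, with a median of -0.79. The variants then split, with 3 of 8 called lower (H2AX, H2AZ1 and MACROH2A2) and 5 higher (H2AZ2, H3-3A, H3-3B, CENPA and MACROH2A1), and a median of 0.17. In that fit 41.7% of tested coding genes were called lower and 30.7% higher, with a median of -0.08. Offsets for GC, length and span of the whole gene gave 53 of 58 clustered genes lower and 2 higher (median -1.11), and 7 of 9 variants lower and 1 higher (median -0.47), beside 41.7% of tested coding genes lower and 30.3% higher. In each of these fits the clustered median was below the variant median, by 0.64 to 0.96 on the log2 scale.

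**Figure D5:**
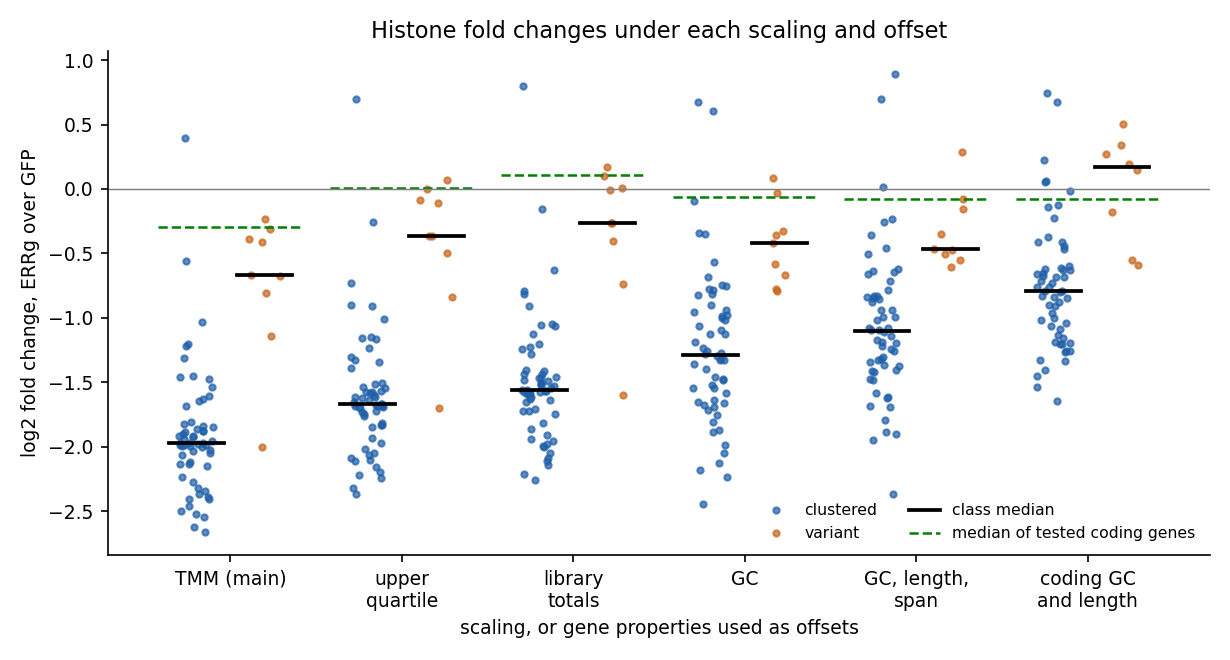
Log2 fold changes (ERRg over GFP, y axis) of the tested clustered and variant histone genes under 3 library scalings and 3 sets of offsets (x axis), with class medians and the median of tested coding genes. The clustered median runs from -1.97 to -0.79 and the variant median from -0.67 to 0.17, with the clustered median lower in each column.

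Promoters are shown for 3 genes of the 1q21 cluster that were lower together and for a variant gene of each type, H2A.Z and H3.3. They are the 120 bases before the RefSeq start on GRCh38.p14, with matches on either strand to the octamer ATTTGCAT, the TATA box TATAAA and CCAAT in capitals, and no matches overlap. The positions are chr1:149886683-149886802 (H2BC21, minus strand), chr1:149886798-149886917 (H2AC20, plus strand), chr1:149812371-149812490 (H2BC18, minus strand), chr4:99950276-99950395 (H2AZ1, minus strand) and chr17:75779780-75779899 (H3-3B, minus strand).
H2BC21: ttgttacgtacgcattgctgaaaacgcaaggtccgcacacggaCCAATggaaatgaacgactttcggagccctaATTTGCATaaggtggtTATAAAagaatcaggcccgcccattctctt
H2AC20: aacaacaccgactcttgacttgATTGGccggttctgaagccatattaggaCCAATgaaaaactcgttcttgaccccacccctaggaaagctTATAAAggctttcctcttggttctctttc
H2BC18: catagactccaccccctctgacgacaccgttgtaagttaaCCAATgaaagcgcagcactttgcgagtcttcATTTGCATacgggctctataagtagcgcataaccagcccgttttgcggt
H2AZ1: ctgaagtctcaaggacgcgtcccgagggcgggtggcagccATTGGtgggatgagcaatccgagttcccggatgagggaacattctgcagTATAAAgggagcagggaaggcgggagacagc
H3-3B: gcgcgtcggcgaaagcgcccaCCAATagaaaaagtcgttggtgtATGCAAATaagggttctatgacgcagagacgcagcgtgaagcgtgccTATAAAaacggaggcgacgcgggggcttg
Over the whole window of 300 bases, 250 before and 50 after the start, 78 of the 86 members had an entry. The octamer, a site known to bind OCT1 in H2B promoters, was found in 14 of 18 H2B (77.8%) and 11 of 16 H2A promoters (68.8%). It was found in 1 of 11 H3 promoters (H3C4), in 0 of 13 H4 and 0 of 9 H1 promoters, in 1 of 11 variant promoters (H3-3B), and in 2.19% of 27305 promoters of the table. Windows of neighbouring genes can overlap, so the same site can count for both. H2AC20 is among the H2A promoters counted, but its printed 120 bases hold no octamer, and the octamer of H2BC21 lies within its window. Such shared sites were not separated in these counts. CCAAT was found in all 16 H2A, all 18 H2B and all 11 H3 promoters, in 3 of 13 H4 promoters and 10 of 11 variant promoters, and in 39.7% of the table. TATAAA was found in 44 of 67 clustered and 5 of 11 variant promoters and in 14% of the table. The letters TNAAGGTCA, an element bound by ERR receptors, were in 0 of 67 clustered and 0 of 11 variant promoters, and in 1.17% of the table. With so rare a match and so few promoters, these counts are near the background and were not read as a lack. Without offsets the median log2 fold changes were -1.94 for H2B and -1.94 for H2A, with most octamers, and -1.94 for H4 and -1.97 for H1, with none. With GC offsets they were -1.60 for H2B, -0.86 for H2A, -1.46 for H4 and -1.02 for H1. A link between the octamer and the fold changes was not tested.

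Of 17 genes of 3′ end processing and the histone locus body, 16 were tested, 9 were called lower and 4 higher, with a median log2 fold change of -0.39. Among tested coding genes 50.6% were called lower and 29% higher, with a median of -0.29, so these counts are near the background. SLBP, the stem-loop binding protein, had 35.6 ± 1.48 CPM in ERRg cells and 60.6 ± 3.62 CPM in GFP cells (SD, n = 4 each), a log2 fold change of -0.77 (SE 0.09, edgeR adjusted p = 1.09e-07), and stayed lower with each set of offsets (-0.41 to -0.21). NPAT, the activator of clustered histone transcription, was higher, with 38.9 ± 4.08 CPM in ERRg cells and 23.5 ± 1.59 CPM in GFP cells (SD, n = 4 each). NPAT had a log2 fold change of 0.73 (SE 0.10, edgeR adjusted p = 1.16e-06), and 0.00 and not called with the coding-sequence offsets. LSM10, a protein of the U7 particle that cuts the histone 3′ end, had 15.2 ± 3.298 CPM in ERRg cells and 50.2 ± 6.94 CPM in GFP cells (SD, n = 4 each, log2 fold change -1.72, SE 0.13). UPF1, the helicase for histone mRNA decay, was at -1.06 (SE 0.11), and SRRT, which links the cap to 3′ end processing, at -0.87 (SE 0.09). UPF1 was at 0.00 and not called with GC offsets. It stayed lower with GC, length and span (-0.12) and with coding-sequence offsets (-0.35). SRRT was not called with GC offsets (0.08), turned to 0.15 with offsets for GC, length and span, and stayed lower with coding-sequence offsets (-0.28). CASP8AP2 (FLASH) was listed at 0 in all libraries.

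Of 35 genes of S phase and DNA replication, all tested, 29 were called lower and 4 higher, with a median log2 fold change of -0.84, beside 50.6% lower, 29% higher and a median of -0.29 among tested coding genes. With the coding-sequence offsets 32 of 35 were called lower and 0 higher (median -0.59), beside 41.7% lower, 30.7% higher and a median of -0.08 among tested coding genes. The helicase subunits MCM5 (39.96 ± 7.13 CPM in ERRg cells and 125 ± 17.4 CPM in GFP cells, SD, n = 4 each, log2 fold change -1.65, SE 0.12) and MCM7 (-1.44, SE 0.10) and the licensing factor CDT1 (-1.88, SE 0.13) had the smallest p-values. Of 12 chaperones coupled to replication, 10 were tested, 7 were called lower and 0 higher, with a median of -0.80, against the same coding background of 50.6% lower. MCM2, which also holds H3 and H4 at the fork, was at -1.56 (SE 0.11), the FACT subunit SSRP1 at -1.04 (SE 0.09) and TONSL, a reader of new histones, at -1.45 (SE 0.14).

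Of 17 variant chaperone genes, 16 were tested, 7 were called lower and 5 higher, with a median log2 fold change of -0.09, near the 50.6% lower and 29% higher among tested coding genes. ZNHIT1 and VPS72, subunits of the complex that deposits H2A.Z, were lower by log2 values of -1.58 (SE 0.11) and -1.29 (SE 0.10). UBN2, a partner of the H3.3 chaperone HIRA, was higher, at 0.92 (SE 0.10), with 110.2 ± 11.8 CPM in ERRg cells and 58.4 ± 5.09 CPM in GFP cells (SD, n = 4 each). The variant chaperone counts depended on the fit. With GC offsets 3 of the 16 were called lower and 8 higher (median 0.19), beside 40.9% lower and 31.7% higher among tested coding genes. With the coding-sequence offsets 6 were lower and 6 higher. Of 12 genes of mitosis, all tested, 6 were called lower and 3 higher without offsets, near the 50.6% and 29% of that fit, with a median of -0.16. Among them the cyclin CCNB1 was at -1.08 (SE 0.09) and the kinases AURKB at -1.40 (SE 0.12) and PLK1 at -1.41 (SE 0.11). With the coding-sequence offsets 10 of the 12 were called lower and 1 higher, with a median of -0.59, as for the S phase list in that fit. No test was made between these lists.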

How the data were processed

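The authors deposited 1 table of raw read counts per gene for 8 libraries. The tools were STAR 2.7.8a and HTSeq 0.11.3, with CASAVA, Trim Galore 0.6.6 and DESeq2 also named, and the build was GRCh38, per the submitters' processing notes. Which annotation release was used, and whether counting used strand, is not given in the sources used here. Reads of overlapping or antisense genes may therefore not be separable. The table has 5 summary lines that name no gene, which entered neither library sizes nor tests. These lines hold reads outside annotated exons, reads in more than one gene (5.44% ± 0.415 of reads in ERRg and 12.1% ± 1.46 in GFP, SD, n = 4 each), reads aligned more than once, and 0 reads in the 2 other lines.

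Symbols came from a name table that matched 60419 identifiers and from 7 RefSeq synonyms. Transcripts, GC content, lengths and UTRs came from GENCODE release 29 on GRCh38 (longest transcript, 58444 identifiers). H3C2 and H3C3 have no entry there, and their positions came from RefSeq. Promoters came from RefSeq.

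Genes were compared with edgeR 4.0.16 (R 4.3.3, limma 3.58.1): quasi-likelihood test, TMM, filterByExpr, group as the sole term, two-sided, Benjamini-Hochberg over 21993 of 41858 genes with a count. SE is that of the log2 fold change. Offsets were natural splines (5 degrees of freedom per covariate) of each library's deviation from the gene mean. Paralog ratios had exact two-sided permutation tests over 70 arrangements, with scipy 1.17.1. In data simulated for ERRg against GFP with 21482 genes in the step, 100% of 50 genes set 2 log2 units lower and 96% of 50 set 1 lower were recovered, as were 98% of 50 set 1 higher and 100% of 50 set 2 higher. The simulation changed only these 200 genes, evenly in both directions, and held no GC trend. In the real data 74.7% of tested genes were called, so the recovery does not show how reliable those calls are. Alternatives were DESeq2 1.42.0, limma-voom, other scalings, filters and thresholds, coding genes alone, the share of reads outside exons as a covariate, the replicate number as a block, and each library left out in turn.

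Members, gene lists and tests were chosen with earlier results of these data known. Named genes are ESRRG, tested variants, H1-10, per clustered family the 3 with the highest average CPM and the lowest and highest log2 fold change, members not called lower, SLBP, NPAT, CASP8AP2, and the 3 smallest p-values in each pathway list. Some genes in the counts are not reported here by name. No label says that the replicates come from separate cultures, so p-values cover the spread between these 8 libraries, possibly a technical one. Between ERRg replicates the chi-square of counts, per gene, was 2.90 for 1 and 2 and 5.02 for 3 and 4, against 9.87 to 22.4 across these pairs.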

Additional observations from a re-analysis of the deposited data

Results flagged for a closer look

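Of 150 sets of 4 values checked (tested members and class sums in each group), 2 had a library far from the other 3, where chance gives about 5% of sets. H4C14 in ERRg replicate 3 had 2.67 CPM, and the other ERRg libraries had 1.97 to 2.07 CPM. H3-7 in ERRg replicate 3 had 29 CPM, and the other ERRg libraries had 31.8 to 32.3 CPM. ERRg replicate 3 was also the highest of its group for 57 of 60 tested clustered genes, a share not counted over all tested genes. Without that library the log2 fold changes of both genes kept their call.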

How the results depend on the processing

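Clustered genes called lower numbered 58 to 60 with each library left out and 49 to 60 under the other settings tried, except that a covariate for reads falling outside annotated exons left 0 (median log2 fold change -0.23). That covariate separates the groups fully, and 8 genes in the whole table were called with it. Higher clustered calls were 1 with upper-quartile factors, library totals or protein-coding genes only, and 2 with each of the 3 sets of offsets. The clustered median was -1.56 with library totals, -1.29 with GC offsets, -1.11 with GC, length and span and -0.79 with coding-sequence offsets, and ran from -2.14 to -1.89 with a library left out. Variant genes called lower were 5 with upper-quartile factors, library totals or protein-coding genes only, 1 when tested against a log2 fold change of 1, 0 with the covariate and 3 with coding-sequence offsets. Higher variant calls were 1 with GC, length and span offsets and 5 with coding-sequence offsets. The variant median was -0.36, -0.26 and -0.35 with those 3 scalings, -0.19 with the covariate, -0.42 with GC offsets, -0.47 with GC, length and span, and it reversed to 0.17 with coding-sequence offsets. The causes were not tested.

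Over the 5 pathway lists, with 89 genes tested, 58 were lower and 16 higher, beside 50.6% and 29% of tested coding genes. Against a log2 fold change of 1 these were 13 and 0, beside 15.8% and 2.91%, so the lower calls were near the background there. With the covariate they were 0 and 0. Higher calls were 27 with upper-quartile factors, 29 with library totals, 27 with coding genes only and 9 with coding-sequence offsets. The shares of tested coding genes called higher were then 40.1%, 43.6%, 40.7% and 30.7%. The paralog differences with GC, length and span offsets were -0.35 (H3-3A to H3-3B), -0.41 (MACROH2A1 to MACROH2A2) and -0.084 (H2AZ1 to H2AZ2). With a library left out they ran from 0.38 to 0.47, from 0.37 to 0.49 and from -0.76 to -0.70, where an exact test cannot go below p = 0.0571. Replicate numbers did not pair the libraries (correlations of same-numbered deviations from -0.14 to 0.08). With the replicate number as a block, 58 clustered and 8 variant genes were lower (MACROH2A1 lost its call), and sign-flip tests of the pairs gave 0.41, 0.43 and -0.73 with exact p = 0.125.

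Over the tested histone genes and all settings, 1450 single values kept direction and call, 86 lost the call, 9 gained one and 35 changed sign. For the other named genes these numbers were 386, 25, 0 and 3. The sign changes follow. With the covariate these were H2AC17 (1.24), H2AC18 (0.55), H2AC19 (0.047), H2AC7 (1.74), H2BC10 (0.15), H2BC21 (0.16), H4C1 (0.092), H4C11 (0.27), H4C12 (0.28), H4C14 (0.26), H4C15 (0.57), H4C16 (0.59), H3-7 (0.060), MACROH2A1 (0.023), MACROH2A2 (0.20) and UBN2 (-0.12). With GC offsets they were H2AC7 (0.61), H3-7 (0.087) and SRRT (0.077). With GC, length and span they were H2AC17 (0.016), H2AC7 (0.70), H3-7 (0.29) and SRRT (0.15). With coding-sequence offsets they were H2AC17 (0.051), H2AC7 (0.74), H4C14 (0.22), H4C16 (0.060), CENPA (0.51), H2AZ2 (0.27), H3-3A (0.19), H3-3B (0.34) and MACROH2A1 (0.15). With library totals they were H3-3A (0.0085), H3-7 (0.10) and MACROH2A1 (0.17), with coding genes only H3-7 (0.0085) and MACROH2A1 (0.080), and with upper-quartile factors MACROH2A1 (0.070). Depth limits genes near 1 CPM, such as H1-6 and H2AC7.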
